A study of Mus musculus with 31 samples.

Results

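Integrins and other cell adhesion molecules were followed in mouse macrophages 2 hours after contact with bacterial lipopolysaccharide (LPS) or live bacteria. The members were chosen by gene symbol alone: every symbol that starts with Itga or Itgb (integrin subunits), Icam (intercellular adhesion molecules), Cdh (cadherins) or Pcdh (protocadherins), the selectins Sele and Selp, Jam2 and Jam3, and the named genes Vcam1, F11r, Selplg, Cd44, Pecam1, Cd9, Cd81, Cd47, Alcam and Ncam1. The rule found 71 genes on 81 probes, out of 10600 genes on an array of 13872 probes. The rule also took in 3 integrin-binding proteins that are not subunits (Itgb1bp1, Itgb1bp2 and Itgb3bp), of which Itgb1bp1 and Itgb3bp were tested and called in no response. Of these, 34 genes on 36 probes had values for 3 or 4 mice per group, in each of the 4 groups, and could be tested. The other 37 genes had no probe that passed this filter. The genes Icam1, Itgam and F11r matched 0 probes by symbol and were not analysed here.

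Macrophages had been grown for 8 days from the marrow of wild-type C57BL/6J mice and of mice lacking MyD88 (MyD88-/-), all 6 to 8 weeks old, with L929 conditioned medium as the source of growth factor. MyD88 is the adaptor that links most Toll-like receptors to their kinases, and its loss here was present in every cell of the mouse, mock-treated cells included. The 4 groups were wild-type cells with LPS, MyD88-/- cells with LPS, wild-type cells with E. coli and MyD88-/- cells with E. coli, each from 4 mice. LPS was given at 10 ng/mL and E. coli at 1 bacterium per macrophage, and every array set a stimulated culture against a mock culture of the same genotype given medium only. A ratio therefore measures a change within a genotype, not a level, so that neither the loss of Myd88 nor the resting abundance of an adhesion gene can be read from it. The same mock cells may serve both stimuli of a mouse, and the labels do not say whether they do.

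Integrins are pairs of an alpha and a beta subunit that bind matrix proteins or counter-receptors on other cells, and signal through talin, kindlin and Src-family kinases. Leukocytes use beta 2 and alpha 4 integrins to hold to Icam and Vcam1 ligands on vessel walls, after selectins and the selectin ligand Selplg have slowed them. Macrophages also carry receptors for fibronectin and vitronectin, the hyaluronan receptor Cd44 and tetraspanins such as Cd9 and Cd81, which organise integrins in the membrane.

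The 31 arrays held between 5564 and 10497 values each, and the array with the fewest was the dye-swapped array of wild-type E. coli mouse 1. In the dye swap the stimulated and mock samples exchange dyes; MyD88-/- LPS mouse 4 had the unswapped array only. All 15 dye pairs correlated above 0 across probes, with r from 0.256 to 0.71, so the arrays run the same way. The ratio is likely stimulated over mock, since titles name the stimulus before the mock, but no label states it. Values below are log2 ratios per mouse, the mean of its arrays, listed from mouse 1 to mouse 4; a value of 1 is a doubling. The error of a group estimate is the standard error (SE) from limma with n = 4 mice unless stated, and a member is called at an adjusted p under 0.05. Whether the cultures of different mice were handled separately beyond their numbering is not stated.

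Adhesion members moved in both directions in all 4 responses. With LPS, 12 of 36 member probes were called in wild-type cells, 7 higher and 5 lower (33.3%, against 17.0% of all 7325 probes tested, 7.99% higher and 9.04% lower). In MyD88-/- cells given LPS 8 were called, 6 higher and 2 lower (22.2% against 9.98%, with 5.28% higher and 4.70% lower). With E. coli 12 were called in wild-type cells, 8 higher and 4 lower (33.3% against 21.2%, with 9.43% higher and 11.8% lower). In MyD88-/- cells with E. coli 12 were called, 9 higher and 3 lower (33.3% against 10.8%, with 6.35% higher and 4.42% lower). The median absolute log2 ratio of the members was 0.39, 0.45, 0.50 and 0.37 in these 4 groups, and that of all probes tested was 0.28, 0.23, 0.30 and 0.23. With only the groups of the comparison in the fit, the count was 7 in wild-type LPS, 6 in wild-type E. coli and 6 in MyD88-/- E. coli. Without MyD88-/- LPS mouse 4 it was 5 in MyD88-/- LPS. The share of all probes called in those fits is not given, so these counts cannot be set against the shares above.

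**Figure D1:**
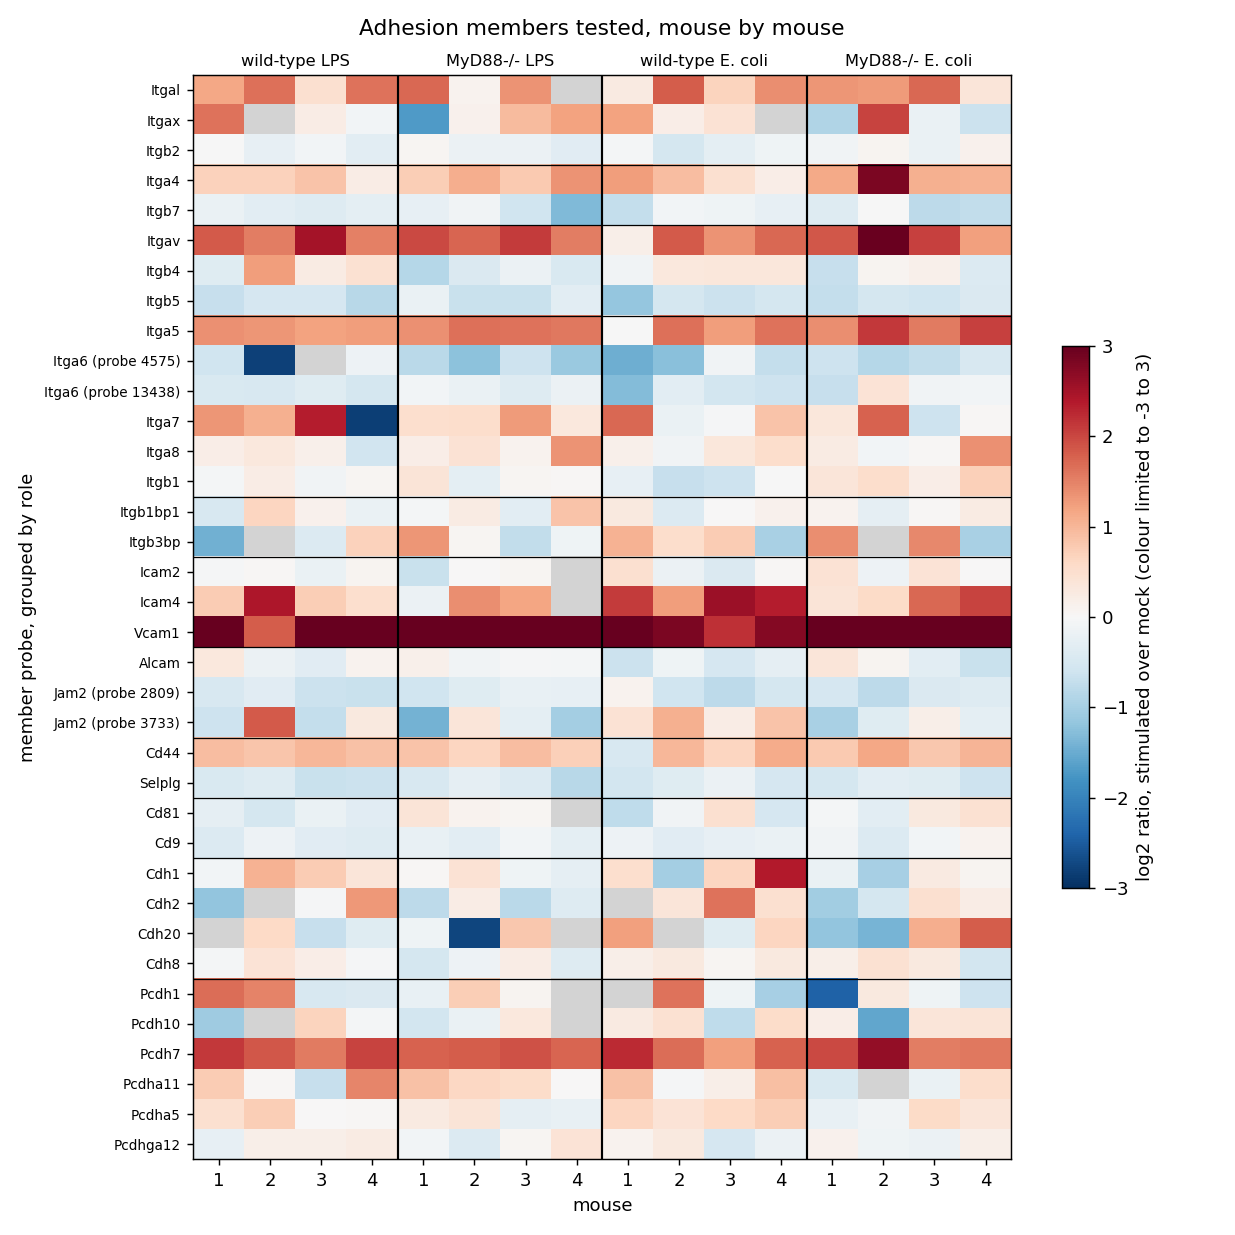
Log2 ratio, stimulated over mock, of each of the 36 member probes tested (rows, grouped by role) in each mouse (columns, 4 groups of 4 mice); red is higher, blue lower, grey not measured, and colours stop at -3 and 3. The rows of Vcam1, Pcdh7, Itgav and Itga5 are red in nearly every column, while Itgb5 and Selplg are blue in all 16.

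Of the 36, 5 recurred across genotype and stimulus: Vcam1, Itga5, Itgav, Cd44 and Pcdh7 rose in all 4 responses. They are 5 of 36 member probes (13.9%), where 3.49% of all probes tested rose in all 4. Itgb5 and Selplg fell in all 4 (5.56% of the members against 2.44% of all probes). Another 5 member probes rose in 1 to 3 responses (13.9% against 9.08% of all probes), and 4 fell in 1 to 3 (11.1% against 13.4%). The remaining 20 were called in none (55.6% against 71.6%), with estimates between -0.72 and 0.82.

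**Figure D2:**
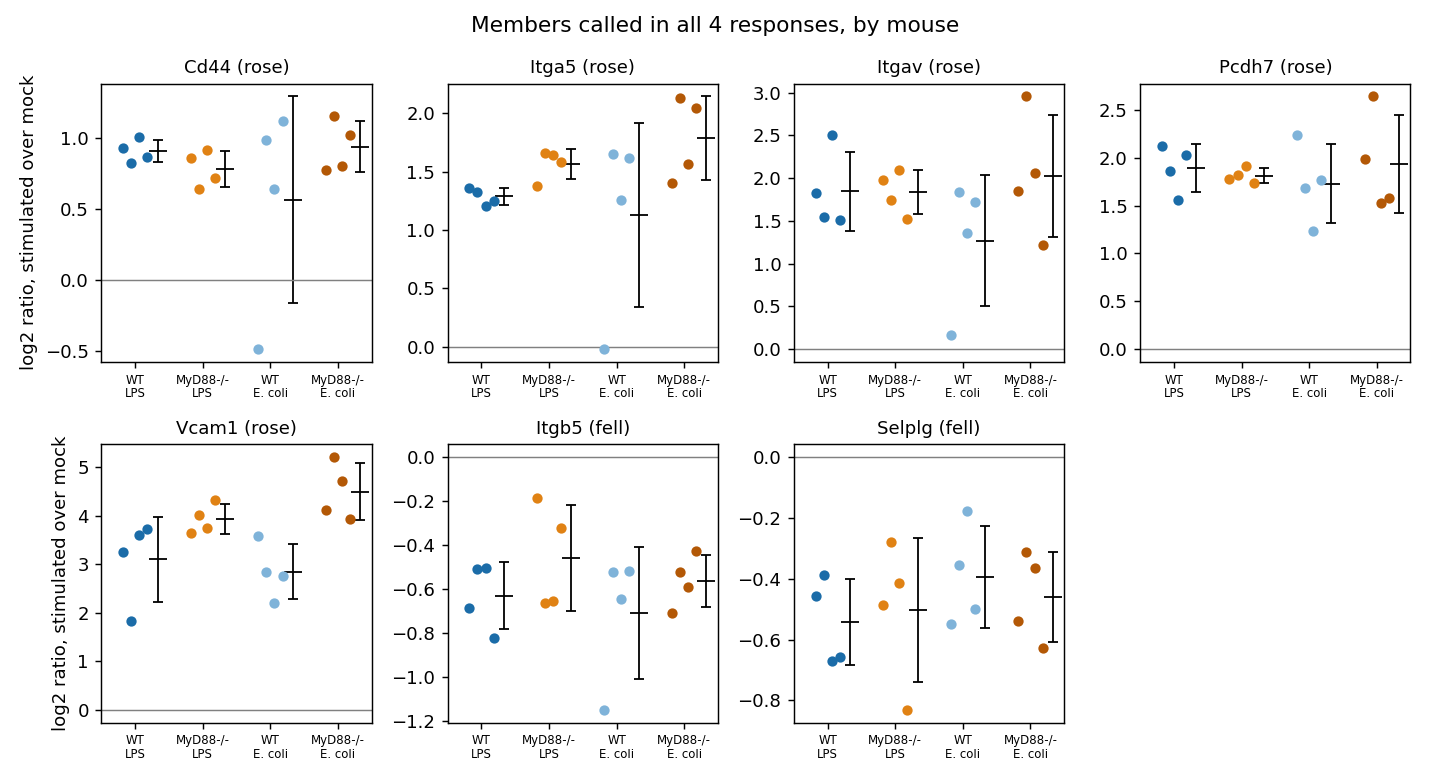
Log2 ratio, stimulated over mock, by mouse (points) for the 7 members called in all 4 responses; the bar beside each group is the mean with its SD, n = 4 mice, and vertical scales differ between panels. Vcam1 and Pcdh7 lie above 1 in every mouse, and wild-type E. coli mouse 1 lies far below the other mice for Cd44, Itga5 and Itgav.

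Among the ligands of leukocyte integrins, Vcam1, the counter-receptor of Itga4-containing integrins, had the highest estimate of all tested members in each response. Its log2 ratios were 3.25, 1.82, 3.60 and 3.73 in wild-type cells with LPS. They were 3.64, 4.01, 3.75 and 4.31 in MyD88-/- cells with LPS. With E. coli they were 3.59, 2.83, 2.20 and 2.77 in wild-type cells and 4.11, 5.21, 4.72 and 3.93 in MyD88-/- cells. All 16 ratios were above 0; mouse 2 of wild-type LPS was the lowest, and with E. coli the genotypes did not overlap. The group estimates of Vcam1 were 3.10, 3.93, 2.85 and 4.49 (SE 0.29 each), that is 8.59-fold, 15.2-fold, 7.19-fold and 22.5-fold, with limma adjusted p from 3.8e-06 down to 6.96e-08. These calls held in all 27 alternative settings in which the probe could be fitted.

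Icam4, an immunoglobulin protein known from red cells that binds leukocyte integrins, rose in wild-type cells with E. coli, where its ratios were 2.10, 1.24, 2.56 and 2.35. The estimate there was 2.06 (SE 0.36, limma adjusted p = 0.000852), and each of these mice had the probe on 1 array only. With LPS the wild-type ratios of Icam4 were 0.76, 2.41, 0.73 and 0.51, and the estimate of 1.10 (adjusted p = 0.0489) fell to 0.67 (adjusted p = 0.269) without mouse 2. In MyD88-/- cells Icam4 gave -0.17, 1.39 and 1.18 with LPS, in 3 mice, and was not called. With E. coli it gave 0.38, 0.58, 1.73 and 2.03 there, an estimate of 1.18 (adjusted p = 0.0499). The calls of Icam4 in wild-type LPS and in MyD88-/- E. coli were each lost in 17 of 26 alternative settings. Icam2, a ligand of Itgal-Itgb2 found on resting vessel cells and leukocytes, was called in no response, with estimates of -0.03, -0.20, -0.03 and 0.18 taking both LPS groups and then both E. coli groups, wild-type before MyD88-/- each time, the order kept in every such list.

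The beta 2 integrins, restricted to leukocytes, were represented by Itgal, Itgax and the shared subunit Itgb2. Itgal, the alpha chain of the receptor LFA-1 that binds Icam proteins, gave 1.17, 1.64, 0.47 and 1.63 in wild-type cells with LPS. In MyD88-/- cells with LPS it gave 1.72, 0.10 and 1.35, with mouse 4 not measured. For E. coli the values were 0.26, 1.81, 0.66 and 1.40 in wild-type and 1.31, 1.28, 1.73 and 0.36 in MyD88-/- cells. All 15 ratios of Itgal were above 0, with at least 1 low mouse in every group, and the groups overlapped throughout. Itgal rose in 3 responses, with estimates of 1.23 in wild-type LPS (SE 0.31, adjusted p = 0.0122), 1.03 in wild-type E. coli (adjusted p = 0.0263) and 1.17 in MyD88-/- E. coli (adjusted p = 0.0224). In MyD88-/- LPS the estimate was 1.06 (SE 0.35, adjusted p = 0.0803). In wild-type LPS the call was lost without mouse 2 or mouse 4 (adjusted p = 0.0676 and 0.0607). In wild-type E. coli it was lost without mouse 2 or mouse 4 (0.145 and 0.108), and in MyD88-/- E. coli without mouse 1, 2 or 3 (0.0774, 0.0903 and 0.123). The wild-type E. coli call was also lost with a dye term (0.116) and with only the groups of the comparison in the fit (0.0648). There each mouse had 1 array, and the low mice 1 and 3 were measured on unswapped arrays (mean 0.46) and the high mice 2 and 4 on swapped arrays (mean 1.60). Unswapped and swapped arrays averaged 1.76 and 0.70 in wild-type LPS, 1.63 and 0.48 in MyD88-/- LPS, and 0.80 and 1.63 in MyD88-/- E. coli; the part of the dye was not tested further.

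Itgb2 itself, measured by 1 tested probe, was called in no response. Its estimates were -0.17, -0.16, -0.26 and -0.02 (SE 0.11 each), and its 16 ratios lay between -0.52 and 0.13. The other Itgb2 probe was measured in 6 of 16 mouse-level ratios and was not tested. Itgax, the alpha chain of a complement receptor used as a dendritic cell marker, ranged from -1.69 to 2.04 over 14 ratios, with no call (estimates 0.59, 0.15, 0.61 and 0.07, SE from 0.50 to 0.58).

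Itga4, the alpha chain that binds Vcam1 and fibronectin, had all 16 ratios above 0. They were 0.70, 0.69, 0.86 and 0.22 in wild-type LPS and 0.74, 1.10, 0.77 and 1.35 in MyD88-/- LPS. With E. coli they were 1.25, 0.92, 0.48 and 0.19 in wild-type and 1.14, 2.81, 1.06 and 1.04 in MyD88-/- cells. Mouse 2 of MyD88-/- E. coli stood well above the rest, and the genotypes overlapped under both stimuli. Itga4 rose in MyD88-/- cells with LPS (0.99, SE 0.25, adjusted p = 0.0192) and with E. coli (1.51, adjusted p = 0.000748). The wild-type estimates were 0.62 (adjusted p = 0.114) and 0.71 (adjusted p = 0.0583). The difference between genotypes was 0.37 with LPS (adjusted p = 0.788) and 0.80 with E. coli (adjusted p = 0.34), so the calls do not show that the genotypes differ. Without mouse 2 or mouse 4 of MyD88-/- LPS the call there was lost (adjusted p = 0.0714 and 0.108), as on unswapped or swapped arrays only (0.173 and 0.157). The MyD88-/- E. coli call was lost with only the groups of the comparison in the fit (0.0551). Itgb7, the beta chain that joins Itga4 in gut-homing lymphocytes, had all 16 ratios below 0, from -1.32 to -0.01, and was called in no response (estimates -0.30, -0.56, -0.29 and -0.49, the lowest adjusted p 0.0639).

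Itga5 and Itgb1 form the classical fibronectin receptor, and only the ratio of Itga5 moved in every response. Itga5 gave 1.36, 1.33, 1.21 and 1.25 in wild-type LPS and 1.37, 1.66, 1.64 and 1.59 in MyD88-/- LPS. With E. coli it gave -0.02, 1.65, 1.26 and 1.62 in wild-type and 1.40, 2.13, 1.57 and 2.05 in MyD88-/- cells. Apart from wild-type E. coli mouse 1, every mouse lay at or above 1.21, and with LPS every MyD88-/- mouse lay above every wild-type mouse by a small margin. The estimates were 1.29, 1.56, 1.13 and 1.79 (SE 0.21 each), or 2.44-fold, 2.96-fold, 2.18-fold and 3.45-fold, with adjusted p of 0.00053, 0.000121, 0.00134 and 3.11e-05. The wild-type E. coli call was lost on swapped arrays alone (0.86, adjusted p = 0.089) and with a fit to the groups of the comparison only (0.0651).

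Itgb1, the beta chain shared by most matrix-binding integrins, gave -0.05, 0.23, -0.11 and 0.07 in wild-type LPS and 0.39, -0.29, 0.05 and 0.03 in MyD88-/- LPS. With E. coli it gave -0.24, -0.70, -0.61 and -0.02 in wild-type and 0.37, 0.52, 0.19 and 0.72 in MyD88-/- cells. With E. coli all wild-type mice were below 0 and all MyD88-/- mice above 0. Itgb1 rose in MyD88-/- E. coli (0.45, SE 0.14, adjusted p = 0.0498), a call lost in 19 of 28 alternative settings, and in wild-type E. coli its estimate was -0.39 (adjusted p = 0.0563). With LPS the estimates were 0.03 and 0.04.

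Itga6, the laminin-binding alpha chain, pointed downward on both of its probes. Probe 4575 had all 15 ratios below 0, from -2.81 to -0.11, and fell in wild-type LPS (-1.19, SE 0.37, n = 3 mice, adjusted p = 0.0432). That estimate rested on mouse 2 and was -0.37 (adjusted p = 0.439) without it. Probe 13438 gave -0.46, -0.49, -0.35 and -0.53 in wild-type LPS, and -1.29, -0.31, -0.54 and -0.62 in wild-type E. coli. It fell in wild-type E. coli (-0.69, SE 0.16, adjusted p = 0.00699) and was -0.46 in wild-type LPS (adjusted p = 0.0703); without wild-type E. coli mouse 1 the call was lost (-0.49, adjusted p = 0.0564), as on unswapped arrays only (-0.36, 0.176) and with only the groups of the comparison (0.0756). In MyD88-/- cells probe 13438 gave estimates of -0.21 with LPS and -0.11 with E. coli, neither called. The tested probes of Itga7 and Itga8, partners of Itgb1 best known from muscle and kidney, were called in no response.

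Itgav, the alpha chain of vitronectin receptors that take part in the uptake of dying cells, rose in all 4 responses. It gave 1.83, 1.54, 2.51 and 1.51 in wild-type LPS and 1.98, 1.74, 2.10 and 1.53 in MyD88-/- LPS. Under E. coli it gave 0.17, 1.84, 1.36 and 1.72 in wild-type and 1.85, 2.96, 2.06 and 1.22 in MyD88-/- cells. All 16 ratios were above 0, the genotypes overlapped under both stimuli, and wild-type E. coli mouse 1 was the lowest mouse. The estimates were 1.85, 1.84, 1.27 and 2.02 (SE 0.28 each), or 3.60-fold, 3.57-fold, 2.41-fold and 4.07-fold, with adjusted p of 0.000203, 0.000303, 0.00373 and 0.000111. On swapped arrays alone the wild-type E. coli estimate was 1.01 (adjusted p = 0.158).

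Itgb5, a beta chain that pairs with Itgav alone, moved the other way. Its ratios were -0.69, -0.51, -0.51 and -0.82 in wild-type LPS and -0.19, -0.67, -0.66 and -0.32 in MyD88-/- LPS. They were -1.15, -0.52, -0.65 and -0.52 in wild-type E. coli and -0.71, -0.53, -0.59 and -0.43 in MyD88-/- E. coli. No mouse was above 0, and mouse 1 of wild-type E. coli was the lowest. Itgb5 fell by 0.63, 0.46, 0.71 and 0.56 on the log2 scale in the 4 groups (SE 0.13 each), with adjusted p of 0.00265, 0.0298, 0.000853 and 0.00777. The MyD88-/- LPS call was lost without mouse 2, 3 or 4 (adjusted p = 0.134, 0.148 and 0.0609), with each array centred (0.0515), on swapped arrays only (0.251) and with only the groups of the comparison in the fit (0.148). The wild-type E. coli call was lost on unswapped arrays only (0.0521), and the MyD88-/- E. coli call with only the groups of the comparison (0.0783). Of the other chains in this group, Itgb4, a laminin receptor chain of epithelia, was not called, and Itgb3, Itgb6 and Itga2b were measured in 10, 5 and 8 of 16 mouse-level ratios and not tested.

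The promoters of the fibronectin and vitronectin receptor chains are shown because these genes moved together (Itga5 and Itgav) or apart (Itgav and Itgb5). RefSeq's promoter table, build GRCm38.p6, holds 5 of the 7 members called in all responses: Itga5, Itgav, Cd44, Pcdh7 and Itgb5; Vcam1 and Selplg are the other two. The 250 bases before the annotated start are printed 5′ to 3′ on the gene's strand, with capitals marking the GC box GGGCGG or its reverse complement CCGCCC. The windows are chr15:103366792-103367041 (minus strand) for Itga5, chr2:83724147-83724396 (plus strand) for Itgav and chr16:33829415-33829664 (plus strand) for Itgb5.
Itga5: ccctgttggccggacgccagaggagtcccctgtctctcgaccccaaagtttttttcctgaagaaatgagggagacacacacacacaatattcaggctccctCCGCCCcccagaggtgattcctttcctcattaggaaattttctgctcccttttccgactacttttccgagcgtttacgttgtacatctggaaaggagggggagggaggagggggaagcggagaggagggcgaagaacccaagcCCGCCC
Itgav: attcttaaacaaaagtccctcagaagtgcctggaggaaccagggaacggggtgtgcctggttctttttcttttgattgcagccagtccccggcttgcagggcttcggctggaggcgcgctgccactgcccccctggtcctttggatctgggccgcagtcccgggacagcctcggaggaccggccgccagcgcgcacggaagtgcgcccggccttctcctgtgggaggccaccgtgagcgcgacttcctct
Itgb5: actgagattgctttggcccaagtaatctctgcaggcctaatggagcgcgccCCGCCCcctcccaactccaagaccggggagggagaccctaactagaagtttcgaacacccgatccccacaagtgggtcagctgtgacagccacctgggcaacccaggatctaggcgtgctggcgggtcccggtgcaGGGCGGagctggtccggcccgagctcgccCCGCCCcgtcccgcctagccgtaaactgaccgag
The GC box occurred 2 times before the start of Itga5, 0 times before Itgav and 3 times before Itgb5, and 32.7% of all 250-base windows hold at least 1. G and C made up 55.6%, 64.4% and 65.2% of these windows, against a median of 52.4%. In the full windows of 300 bases, which add 50 bases after the start, 4 other motifs were searched on both strands: a 10-letter NF-kB consensus, NF-kB GGAANTTCC, interferon response TTTCNNTTT and AP-1 TGANTCA. None of the 5 promoters held any of them, while 8.46%, 0.928%, 10.6% and 7.81% of 32851 windows did. That says only that these letters are not in these windows. The GC box search was added after the other motifs gave no match. In the windows of 300 bases Itgav and Cd44 each held 1 GC box, after the start, and Pcdh7 held 0. Of all such windows 35.7% hold at least 1.

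Cd44, the hyaluronan receptor, gave 0.93, 0.83, 1.01 and 0.87 in wild-type LPS and 0.86, 0.64, 0.92 and 0.72 in MyD88-/- LPS. With E. coli it gave -0.49, 0.99, 0.64 and 1.12 in wild-type and 0.78, 1.16, 0.80 and 1.02 in MyD88-/- cells. Wild-type E. coli mouse 1 was the one mouse below 0, and the groups otherwise overlapped. Cd44 rose with estimates of 0.91 (adjusted p = 0.00352), 0.78 (0.0139), 0.57 (0.0457) and 0.94 (0.00367), SE 0.19 each, or 1.88-fold, 1.72-fold, 1.48-fold and 1.92-fold. The MyD88-/- LPS call was lost without mouse 1 or mouse 3 (adjusted p = 0.0629 and 0.0674) and on swapped arrays only (0.182). The wild-type E. coli call was lost in 20 of 28 alternative settings.

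Selplg, the mucin on leukocytes that selectins bind, was below 0 in every mouse. It gave -0.46, -0.39, -0.67 and -0.66 in wild-type LPS and -0.48, -0.28, -0.42 and -0.83 in MyD88-/- LPS. It gave -0.55, -0.36, -0.18 and -0.50 in wild-type E. coli and -0.54, -0.31, -0.36 and -0.63 in MyD88-/- E. coli. The 4 groups overlapped fully. Selplg fell by 0.54, 0.50, 0.40 and 0.46 on the log2 scale (SE 0.11 each), a change of 1.46-fold, 1.42-fold, 1.32-fold and 1.38-fold, with adjusted p of 0.00362, 0.00918, 0.0214 and 0.0152. Without MyD88-/- LPS mouse 4 the call there was lost (adjusted p = 0.0792). In wild-type E. coli it was lost without mouse 1, 2 or 4 (0.0931, 0.0529 and 0.0875), and in MyD88-/- E. coli without mouse 1 or mouse 4 (0.0617 and 0.0752). With only the groups of the comparison in the fit all 4 calls were lost (adjusted p from 0.0583 to 0.143), and on swapped arrays only those other than wild-type LPS were lost (0.0589 to 0.538).

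Jam2, a junctional adhesion molecule, was measured by a pair of probes that disagreed. Probe 2809 gave -0.48, -0.33, -0.64 and -0.67 in wild-type LPS and -0.61, -0.37, -0.22 and -0.25 in MyD88-/- LPS. It gave 0.11, -0.60, -0.77 and -0.52 in wild-type E. coli and -0.51, -0.78, -0.44 and -0.39 in MyD88-/- E. coli, so that 15 of 16 ratios were below 0. It fell in wild-type LPS (-0.53, SE 0.14, adjusted p = 0.0134), wild-type E. coli (-0.45, adjusted p = 0.0285) and MyD88-/- E. coli (-0.53, adjusted p = 0.0179), with -0.36 in MyD88-/- LPS (adjusted p = 0.119). The wild-type LPS call was lost without mouse 3 or 4 (adjusted p = 0.0586 and 0.0619), that in wild-type E. coli without mouse 2, 3 or 4 (0.11, 0.152 and 0.0948), and the MyD88-/- E. coli call without mouse 1 or 2 (0.0527 and 0.116). On swapped arrays only, the wild-type E. coli estimate turned to 0.11 (adjusted p = 0.805), and a dye term ended that call (-0.38, adjusted p = 0.123). With only the groups of the comparison in the fit, all 3 calls were lost (0.0649, 0.179 and 0.106). The calls in wild-type LPS and MyD88-/- E. coli were lost on swapped arrays only (0.439 and 0.0867), and the latter also on unswapped arrays only (0.159). Probe 3733 was called in no response and had 8 ratios above 0 and 8 below. Alcam, an immunoglobulin adhesion molecule that binds the T cell protein Cd6, was not called either (estimates -0.02, -0.01, -0.39 and -0.14).

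Of the tetraspanins, Cd9, known for its part in cell fusion and migration, fell in wild-type LPS. Its ratios there were -0.40, -0.16, -0.33 and -0.40, and the estimate was -0.32 (SE 0.10, adjusted p = 0.0423), a call lost in 18 of 28 alternative settings. The other groups gave -0.23, -0.24 and -0.13, and 15 of its 16 ratios were below 0. Cd81, a tetraspanin of the B cell coreceptor, was called in no response. It gave -0.28, -0.53, -0.20 and -0.35 in wild-type LPS, against 0.39, 0.11 and 0.07 in MyD88-/- LPS.

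**Figure D3:**
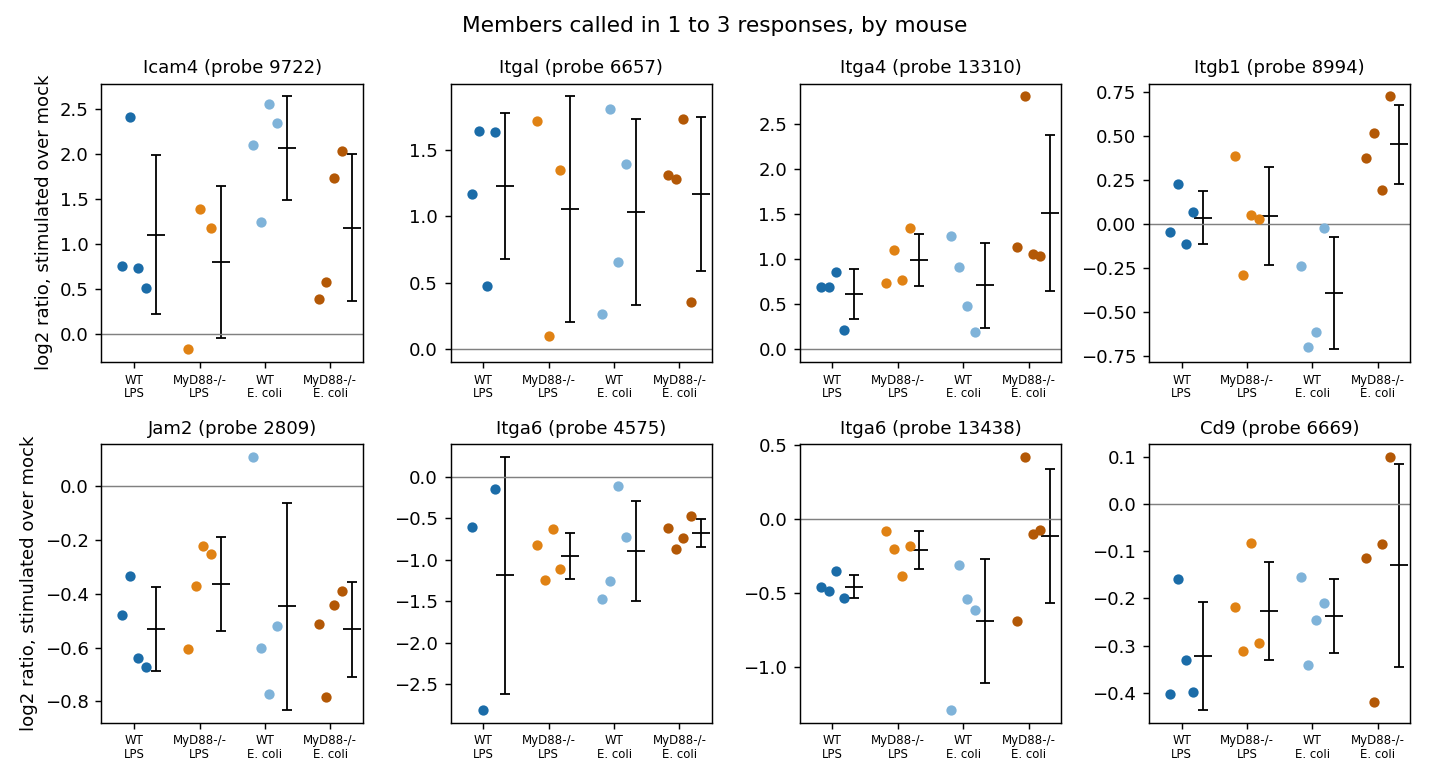
Log2 ratio, stimulated over mock, by mouse (points) for 8 probes of members called in 1 to 3 responses; the bar beside each group is the mean with its SD over the mice measured, and vertical scales differ between panels. Icam4 in wild-type LPS and Itga4 in MyD88-/- E. coli each hold 1 mouse far above the other 3.

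Cadherins, most of which join like cells through calcium-dependent contacts, were rarely measured. Of 17 genes 4 were tested (Cdh1, Cdh2, Cdh8 and Cdh20), and 0 were called in any response. The count at an unadjusted limma p under 0.05 was also 0 in each. Of all probes, 29.2%, 21.9%, 32.9% and 22.2% had such a p in the 4 responses. A count of 0 among 4 probes therefore says little about cadherins. Protocadherins, their relatives best known from neurons, had 6 of 15 genes tested. Pcdh7 rose in all 4 responses. It gave 2.12, 1.86, 1.56 and 2.03 in wild-type LPS, 1.78, 1.82, 1.92 and 1.74 in MyD88-/- LPS, 2.23, 1.68, 1.23 and 1.77 in wild-type E. coli and 1.98, 2.64, 1.53 and 1.58 in MyD88-/- E. coli. No mouse was below 1.23, and the groups overlapped throughout. The estimates of Pcdh7 were 1.89, 1.81, 1.73 and 1.93 (SE 0.18 each), or 3.71-fold, 3.52-fold, 3.32-fold and 3.82-fold, with adjusted p between 2.27e-06 and 5.51e-06, and the 4 calls held in all 28 alternative settings. Pcdha5, of the clustered protocadherins, whose members share exons and much sequence, rose in wild-type E. coli with 0.65, 0.41, 0.60 and 0.75 (estimate 0.60, SE 0.16, adjusted p = 0.015). That call was lost without mouse 1 or 4 (adjusted p = 0.0547 and 0.0663) or with unswapped arrays only (0.0668), and a probe of such a cluster may read more than 1 member.

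Wild-type E. coli mouse 1 decided several of these values through its swapped array. There the unswapped array gave 0.97 for Itga5, 1.24 for Itgav and 0.32 for Cd44, while the swapped array gave -1.02, -0.91 and -1.29. The same mouse was the highest of its group for Vcam1 (3.59) and Pcdh7 (2.23). Across all probes its dye pair had the highest correlation of the 15 pairs (r = 0.71). Without this mouse the wild-type E. coli estimates were 1.51 for Itga5 (adjusted p = 6.86e-06), 1.64 for Itgav (0.000622) and 0.92 for Cd44 (0.000162). Without the swapped array alone, a setting chosen after seeing the data, they were 1.38, 1.54 and 0.77. Vcam1 was then 3.28, also above its estimate with that array. In this setting 14 member probes were called in wild-type E. coli instead of 12.

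Most tested alpha chains had higher ratios than the beta chains they pair with, given within each mouse as a description with no test. The log2 ratio of Itga5 lay above that of Itgb1 in 16 of 16 cases, with a median gap of 1.39. Itgav lay above Itgb5 in 16 of 16, by a median of 2.35, and above Itgb1 in 16 of 16, by 1.80. Itga4 lay above Itgb1 (median 0.82) and above Itgb7 (median 1.22) in 16 of 16, and Itgal above Itgb2 in 15 of 15 (median 1.42). Itgax lay above Itgb2 in 11 of 14. Itga7 and Itga8 lay above Itgb1 in 12 and 11 of 16. Itga6 lay above Itgb1 in 1 of 15 cases on probe 4575 and in 3 of 16 on probe 13438. These are gaps between changes of different probes, and they say nothing of the amount of either chain. Several pairs share Itgb1, and the gaps restate the member values given above, so they are not separate results.

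**Figure D4:**
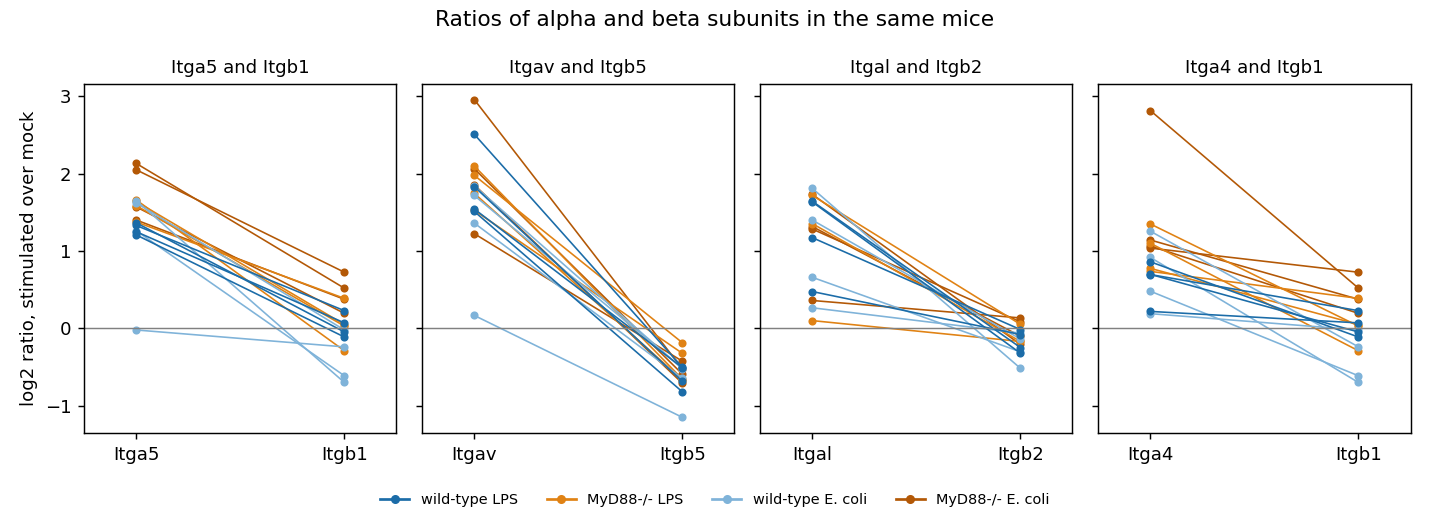
Log2 ratios, stimulated over mock, of an alpha chain (left) and a beta chain (right) joined by a line for each mouse and stimulus, coloured by group, for 4 pairs. The pairs drawn are among those with the alpha chain higher in every case, and pairs with Itga6, Itga7, Itga8 or Itgax are not shown. Every line in all 4 panels runs downward from the alpha to the beta chain; the gap is widest for Itgav and Itgb5, with a median of 2.35.

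Whether loss of MyD88 altered these responses was tested as the difference of ratios between genotypes. None of the 36 member probes was called with LPS (0.287% of all probes were, 0.0683% higher and 0.218% lower in MyD88-/- cells), and 1 had an unadjusted limma p under 0.05 (8.91% of all probes did). With E. coli 0 of 36 were called (0.751% of all probes, 0.205% higher and 0.546% lower) and 5 had an unadjusted p under 0.05 (13.3% of all probes did). With LPS the member differences ran from -0.88 to 0.83, and 19 of 36 had a 95% interval within 1 log2 unit of 0; with E. coli they ran from -1.04 to 1.65, and 16 did. The mice of one genotype lay wholly above or below those of the other for 2 member probes with LPS (5.56%, where 6.68% of all probes do not overlap) and for 3 with E. coli (8.33%, where 9.08% do not). These were Itga5 and Cd81 with LPS and Vcam1, Itgb1 and Jam2 probe 3733 with E. coli.

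Vcam1 and Itgb1 came closest to a call. The Vcam1 response to E. coli was higher in MyD88-/- cells by 1.65 (95% interval 0.78 to 2.51, adjusted p = 0.0779), with 4 of 4 MyD88-/- mice above all wild-type mice. It was called with a filter of all 4 mice in every group (adjusted p = 0.0483) and without wild-type LPS mouse 2 (0.0264). The dyes differ here: in wild-type E. coli Vcam1 averaged 4.53 on 2 unswapped and 2.03 on 4 swapped arrays, and in MyD88-/- E. coli 4.80 on 3 unswapped and 4.24 on 3 swapped arrays. The difference was 2.21 on swapped arrays alone (adjusted p = 0.156) and 1.54 with a dye term (0.311), and 1.21 without the swapped array of wild-type E. coli mouse 1 (0.367). Itgb1 was higher in MyD88-/- E. coli by 0.85 (95% interval 0.43 to 1.27, adjusted p = 0.063). It was called with the 4-mouse filter (0.0377), with the dye term (0.0253) and without wild-type E. coli mouse 4 (0.0482). On unswapped arrays alone the Itgb1 difference was 0.66 and on swapped arrays alone 1.04, neither called. The Itgb1 difference with LPS was 0.01 (95% interval -0.41 to 0.43).

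For the members that moved in every response the estimate of the LPS difference was smaller in size than that of the response. Their intervals are wide. That of Itgb5 reaches beyond the size of its MyD88-/- LPS response, and that of Cd44 comes close to the size of a response. The LPS difference was -0.01 for Itgav (95% interval -0.84 to 0.82), -0.12 for Cd44 (-0.70 to 0.45) and -0.08 for Pcdh7 (-0.62 to 0.46). For Itgb5 it was 0.17 (-0.21 to 0.55) and for Selplg 0.04 (-0.30 to 0.38). It was 0.28 for Itga5 (-0.36 to 0.92) and 0.83 for Vcam1 (-0.04 to 1.70). With E. coli it was 0.66 for Itga5 (0.02 to 1.30, adjusted p = 0.356), 0.75 for Itgav (-0.08 to 1.58), 0.37 for Cd44 (-0.20 to 0.95) and 0.20 for Pcdh7 (-0.33 to 0.74). The first 3 of these take in the low mouse 1 of wild-type E. coli.

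**Figure D5:**
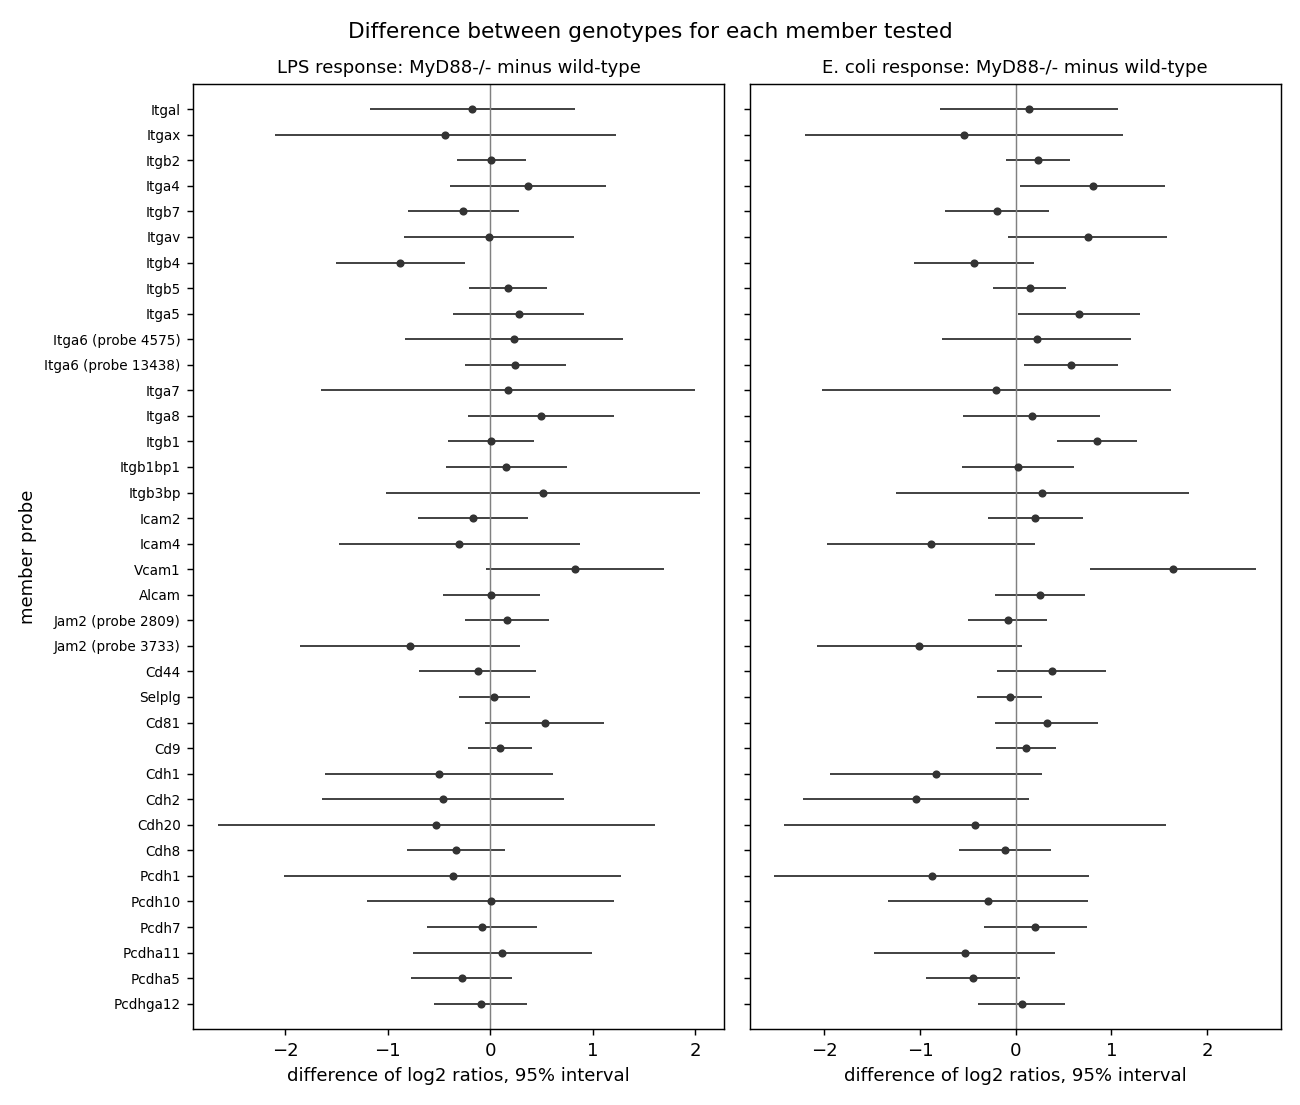
Difference of log2 ratios, MyD88-/- minus wild-type, with its 95% interval from limma (n = 4 mice per genotype, 3 where a mouse was not measured), for each member probe with LPS (left) and E. coli (right). Vcam1 and Itgb1 with E. coli lie to the right of 0 with intervals from 0.78 to 2.51 and from 0.43 to 1.27.

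E. coli and LPS responses were also set against each other. In wild-type cells 0 of 36 member probes differed between stimuli (0% of all probes did), with 1 at an unadjusted limma p under 0.05 (4.05% of all probes). In MyD88-/- cells 0 differed (0% of all probes), with 0 at an unadjusted p under 0.05 (2.42% of all probes). For the interaction of genotype and stimulus 0 were called (0% of all probes), with 1 at an unadjusted p under 0.05 (2.99% of all probes). The gap was widest in wild-type cells for Icam4, whose E. coli response exceeded the LPS response by 0.96 (SE 0.51), and the member estimates there ran from -0.58 to 0.96.

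The 45 member probes that failed the filter were measured in 1 to 12 of 16 mouse-level ratios and carry no main test. Those given below with values were chosen after the values were seen. Under a looser filter, Sele and Cdh3 were called in wild-type LPS and Pcdha6 probe 5677 in wild-type E. coli. A probe can pass that filter through the groups where it is high, so no weight is put on these calls. Sele, the selectin of inflamed endothelium, was measured in 11: 1.87, 2.24 and 3.17 in wild-type LPS mice 1, 2 and 4, and 0.32 in the one MyD88-/- LPS mouse measured. With E. coli it gave 0.49, 1.72 and -0.64 in wild-type mice 2 to 4, and 0.05, 1.72, 0.77 and 0.56 in MyD88-/- mice. The 3 wild-type LPS values of Sele lay above all its others. It has no main test because too few MyD88-/- LPS mice had a value to pass the filter. Cdh3, the placental cadherin, was measured in 6 and gave 0.71, 0.77 and 1.39 in wild-type LPS mice 2 to 4, on 1 array each. Its wild-type E. coli values were below 0, at -0.65 in mouse 2 and -0.82 in mouse 4, and MyD88-/- LPS mouse 2 gave 0.26. Pcdha6 was measured in 9 ratios on probe 5677 and in 3 on probe 7315. Probe 5677 gave 0.51, 0.95 and 0.79 in wild-type E. coli mice 1, 3 and 4. Cdh5, the cadherin of vessel lining cells, gave -2.41, -1.33, -0.88 and -0.95 on probe 8835 in wild-type LPS. The same probe gave 1.31 and 1.44 in wild-type E. coli mice 3 and 4. The other Cdh5 probe, 11637, gave -3.66, 0.59 and 1.30 in wild-type LPS mice 2 to 4. Over all groups, 4 of 12 ratios on probe 8835 and 4 of 10 on probe 11637 were above 0. Pecam1, an adhesion molecule of vessel cells and leukocytes, was measured in 12 ratios from -1.34 to 1.38, 6 above 0 and 6 below.

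Other members that were not tested had few values. Cd47, the signal that Sirpa on macrophages reads, was measured in 5 and 9 mouse-level ratios on its probes. Among integrin chains, Itga2 was measured in 10, Itgae in 9, Itgb2l in 12 and Itga3 in 6, and the integrin-binding protein Itgb1bp2 was measured in 5. Icam5 was measured in 8, Selp in 7, Jam3 in 6, and Ncam1 in 2 and 9. The cadherins Cdh4, Cdh6, Cdh9, Cdh10, Cdh11, Cdh13, Cdh15, Cdh16, Cdh17, Cdh22 and Cdh23 were measured in 1 to 9, and the protocadherins Pcdh8, Pcdh12, Pcdh15, Pcdha4, Pcdha7, Pcdha9, Pcdha10 and Pcdha12 in 3 to 9.

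Partners of the members were read from lists of known function. Of the integrin activation and adhesion machinery, 18 probes were tested. Counts higher and lower were 3 and 3 in wild-type LPS (33.3% called, against 17.0% of all probes) and 2 and 1 in MyD88-/- LPS (16.7% against 9.98%). They were 2 and 5 in wild-type E. coli (38.9% against 21.2%) and 1 and 0 in MyD88-/- E. coli (5.56% against 10.8%). Src, the kinase that signals from engaged integrins, rose in all 4 (2.07, 1.80, 1.63 and 2.36; adjusted p from 0.00106 to 0.00998). Lpxn, a paxillin relative of leukocyte adhesion sites, fell in wild-type LPS (-0.73), MyD88-/- LPS (-0.49) and wild-type E. coli (-0.84), and was -0.38 in MyD88-/- E. coli (adjusted p = 0.0682). Lims1, which links integrins to the cytoskeleton through Ilk, rose on both probes in wild-type LPS (1.28 and 0.54), on probe 5096 in MyD88-/- LPS (0.61) and on probe 7479 in wild-type E. coli (0.57). Vav1, a signalling protein of blood cells, fell in wild-type LPS (-0.74) and wild-type E. coli (-0.85), with -0.08 and -0.23 in MyD88-/- cells.

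Of the same list, Tln1, the talin that opens integrins, and the actin crosslinker Actn4 fell in wild-type E. coli (-0.59 and -0.57), as did Cyth1 (-1.01), a regulator of beta 2 integrins. Tns1 fell in wild-type LPS (-0.68). No probe of the 4 partner lists was called for the difference between genotypes in either stimulus, between stimuli, or for the interaction. The unadjusted limma p was under 0.05 for 6 of 18 machinery probes in the E. coli genotype difference (13.3% of all probes) and for 2 of 18 with LPS (8.91% of all probes). With E. coli the same held for 4 of 10 catenin and scaffold probes, 2 of 6 matrix probes and 1 of 12 probes of other tetraspanins and Cd47 partners. With LPS it held for 2 of 10, 2 of 6 and 0 of 12. Among the lowest adjusted p of the machinery were Vav1 (0.66 with LPS, 0.62 with E. coli), Lims1 probe 7479 (-0.77 with LPS), Actn4 (0.58 with E. coli) and Lpxn (0.46 with E. coli).

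Matrix proteins that integrins or Cd44 bind had 6 tested probes. Thbs1, the matricellular protein that binds Cd47, fell on probe 3020 in all 4 responses (-2.09, -1.38, -2.25 and -1.62) but was called on probe 2169 in none (0.64, -0.25, 0.47 and -0.25). Mfge8, which bridges dying cells to Itgav integrins, fell in wild-type LPS (-0.53), and Col4a2, a basement membrane collagen, rose in MyD88-/- LPS (1.19). Among catenins and junction scaffolds, 10 probes, Ctnnb1 rose in wild-type LPS (1.57), MyD88-/- LPS (1.43) and wild-type E. coli (1.70), and was 0.64 in MyD88-/- E. coli (adjusted p = 0.317). Pvr, a nectin-like ligand, rose in both wild-type responses (2.98 and 3.04), where MyD88-/- cells gave 0.78 and 0.98. The Pvr genotype difference was -2.20 with LPS (adjusted p = 0.422) and -2.06 with E. coli (0.228). Of 12 probes of other tetraspanins and Cd47 partners, Cd82 rose in all 4 (0.87, 1.14, 0.98 and 1.22). Cd37 fell on probe 8083 in both wild-type responses (-0.82 and -0.76), and Cd151 (-0.68) and Sirpa probe 5032 (-0.82) fell in wild-type E. coli. The other probes of these genes were not called there. Cd37 probe 2918 gave -0.19 with LPS and -0.16 with E. coli in wild-type cells, and Sirpa probe 4763 gave -0.29 in wild-type E. coli (adjusted p = 0.0618). Partners among the 3 smallest p of their list in a response that were not called include Lamb1 at 0.88 in wild-type E. coli (adjusted p = 0.0706), Nectin1 at 0.65 in wild-type E. coli (0.109), Afdn at -0.62 in MyD88-/- LPS (0.149) and Msn at 0.52 in MyD88-/- E. coli (0.292).

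Several members are also known from vessel, lymphoid or stromal cells, so markers of those cells were read beside them. Of macrophage markers 7 probes were tested; Msr1, a scavenger receptor, rose in all 4 responses (0.52, 0.79, 0.48 and 0.91). The receptor Fcgr1 fell in wild-type LPS (-0.47), MyD88-/- LPS (-0.47) and wild-type E. coli (-0.58), Cd68 fell in wild-type LPS (-0.50), and Adgre1, Csf1r, Lyz2 and Mrc1 were not called. The median ratio of the 7 was -0.25, -0.20, -0.31 and -0.17 in the 4 responses, where that of all probes was -0.05, -0.05, -0.06 and -0.05. Of 7 endothelial genes with a probe 2 were tested: Kdr fell in all 4 (-2.24, -1.77, -1.92 and -1.80) and Eng was not called. Of 7 fibroblast and stromal genes 0 were tested, with values in 4 to 12 of 16 mouse-level ratios. Of 4 tested B cell probes Blnk, also expressed in macrophages, fell in all 4 responses and Cd79a fell in MyD88-/- LPS (-1.05); 1 T cell, 3 neutrophil and 2 platelet probes had 0 calls, and 1 of 3 dendritic cell probes, Zbtb46 probe 9213, rose in wild-type LPS (0.70). The part of such cells in the adhesion results was not tested, and in bulk RNA fewer cells of a type and less RNA per cell cannot be told apart.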

How the data were processed

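Each array compared RNA of stimulated and mock macrophages on a spotted 2-colour slide. Per the labels, slides were read on a GenePix 4000B scanner with GenePix Pro 3.0 and analysed in BASE and GeneSpring; the normalization, background correction and spot filter are not given in the sources used here. The deposited values are log2 ratios, used as the authors normalized them. Signal intensities were not analysed here, so that the number of arrays and mice limits the precision. Values at a floor ratio of 0.01 (log2 -6.64; 21 of 1374 member values) were treated as missing. The arrays of a mouse were averaged as 1 replicate, and a probe was tested if measured in at least 3 of 4 mice of every group. In all, 9 comparisons (the 4 responses, 2 genotype differences, 2 stimulus differences and the interaction) were taken from 1 limma fit (limma 3.58.1, R 4.3.3) over all 4 groups and 7325 probes, with Benjamini-Hochberg adjustment over all of them and a threshold of 0.05. Intervals are 95% intervals of the fit. The scripts were tested on simulated data.

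The members and lists were chosen with earlier results of these data known. An item of the symbol rule is not reported here. Named were every member called, a fixed set of members whether called or not, and members that failed the filter with the number of mice measured. Of the partner lists, every probe called in a response was named, with examples of uncalled ones among the 3 of smallest p. For differences the partners are given by counts and examples chosen after their values were seen. The members that failed the filter and are printed with values were also chosen after those were seen. Mouse numbers are shared between groups, but same-numbered mice did not deviate together throughout (residual correlations from -0.0837 to 0.244 over 5456 probes), so the numbers were not used as a block. Alternatives covered array centring and scaling, the floor, the filter, dye orientation, a dye term, the groups in the fit, a trend with robust spread, the mouse number as a block and leaving out each mouse. Swapped arrays only, the removal of the swapped array of wild-type E. coli mouse 1 and the GC box search were added after seeing the data.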

Additional observations from a re-analysis of the deposited data

Results flagged for a closer look

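A check for outlying mice covered 81 groups of 4 measured mice, which are only a part of such groups among the tested members. The gap between an extreme mouse and its nearest neighbour was compared with the range of the group. Dixon's 95% critical value was exceeded in 2 groups, where chance gives about 1 in 20 such groups. Icam4 in wild-type LPS mouse 2 stood at a log2 ratio of 2.41, with the other 3 mice between 0.51 and 0.76. Itga4 in MyD88-/- E. coli mouse 2 stood at 2.81, with the other 3 mice between 1.04 and 1.14.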

How the results depend on the processing

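Of 44 called member values, 18 kept their call in every setting run, 26 lost it in at least 1 and 1 of these turned: Jam2 probe 2809 in wild-type E. coli was 0.11 (adjusted p = 0.805) on swapped arrays only. The count of called member probes was 12 in wild-type LPS (8 to 12 when 1 mouse was left out), 8 in MyD88-/- LPS (5 to 9), 12 in wild-type E. coli (9 to 12) and 12 in MyD88-/- E. coli (8 to 12). With only the groups of the comparison in the fit it was 7 in wild-type LPS, 6 in wild-type E. coli and 6 in MyD88-/- E. coli. On swapped arrays only it was 4 in MyD88-/- LPS, 6 in wild-type E. coli and 7 in MyD88-/- E. coli, and on unswapped arrays only 7 in MyD88-/- E. coli. These settings use fewer arrays or samples, and the share of all probes called in them is not given. The E. coli genotype difference had 0 called member probes, 0 to 1 when 1 mouse was left out (1 without wild-type LPS mouse 2, which was Vcam1, and 1 without wild-type E. coli mouse 4, which was Itgb1), 2 with all 4 mice required in every group and 1 with a dye term; the cause was not tested. The other 4 differences had 0 in every setting. With the mouse number as a replicate block, the genotype, stimulus and interaction comparisons had 0 called member probes; same-numbered mice were the best match in 0 to 2 of 4 cases, and the block changed no call.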
